A study of Mus musculus and Rattus norvegicus with 24 samples.

Results

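The 39 genes described here are markers of macrophages and other leukocytes, measured by RNA-seq in 18 whole mouse hearts in which the transcription factor gene Atf4 was either left in place (ctrl) or subject to a conditional knockout (cKO). The markers were picked by symbol among the 54532 genes of the heart count table, and 32 of the 39 had enough counts to be tested. They comprise 3 genes of all leukocytes (Ptprc, Laptm5 and Cd52), 2 adaptors of myeloid receptors (Fcer1g and Tyrobp), 12 macrophage genes, 5 markers of resident macrophages, 2 markers of lipid-handling macrophages, 4 markers of recruited monocytes, 2 neutrophil genes, 5 lymphocyte genes and 4 genes of MHC class II antigen presentation. Hearts of each genotype were taken after a sham operation or at 3 d or 7 d after transverse aortic constriction (TAC), which narrows the aorta and loads the left ventricle, and each of the 6 groups held 3 libraries. The genotypes and operations were read from the sample titles and the series' design text, since 1 label field on these hearts speaks of overexpression and goes against the titles. The age and sex of the mice, the Cre driver and the cells in which Atf4 was deleted were not given in the sources used here. Nor did the labels say whether the 3 libraries of a group came from separate mice, so p-values measure the spread between these libraries, part of which may be technical.

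The adult mouse heart holds a standing population of resident macrophages that maintain themselves locally, carry scavenger and clearance receptors such as CD163, LYVE1, TIM4 and folate receptor beta, and take up dying cells and debris. Pressure overload draws in monocytes that carry CCR2 and Ly6C and can turn into macrophages in the tissue, and neutrophils, which carry the calcium-binding pair S100A8 and S100A9, arrive early after cardiac injury. Macrophages and dendritic cells present peptides to helper T cells on MHC class II molecules, for which CD74 is the chaperone.

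Library totals ran from 15106975 to 18112798 counts. Levels are given in CPM, a gene's counts brought to a common library size with edgeR's scaling factors, and fold changes are on the log2 scale. Atf4 itself was lower in cKO hearts, at 23.5 ± 2.66 against 56.5 ± 19.2 CPM after sham, 25.6 ± 1.32 against 85.4 ± 5.39 CPM at TAC 3 d and 28.5 ± 2.43 against 73.6 ± 5.5 CPM at TAC 7 d (mean ± SD, n = 3). The Atf4 difference after sham (-1.26 on the log2 scale, adjusted p = 0.0487 in edgeR) was not called when any 1 of 5 of the 6 sham libraries was left out (-1.35 to -1.10), ctrl replicate 3 being the exception. A pair of libraries at TAC 3 d and 1 at TAC 7 d stood apart from their groups, by different measures. In replicate 3 of ctrl TAC 3 d, mitochondrial genes took 10.6% of counts, against 14.5% to 23.0% in the others, and the 7 cardiomyocyte markers summed to 34700 CPM, against 43200 to 70800 CPM. In replicate 2 of cKO TAC 3 d, 5 erythroid genes summed to 11.7 CPM, against 150 to 964 CPM elsewhere. Replicate 2 of cKO TAC 7 d lay away from its group mates, with a chi-square over genes of 42.0 and 61.1 per degree of freedom against each of them and 14.2 between those 2, mitochondrial genes at 14.5% of counts and the 11 further granulocyte genes at 42.0 CPM against 8.81 and 15.0 CPM. The chi-square was 127 and 147 for replicate 3 of ctrl TAC 3 d, with 25.4 between its group mates. For replicate 2 of cKO TAC 3 d it was 25.8 and 25.7, with 21 between its group mates. By this measure that library stood apart less than replicate 2 of cKO TAC 7 d. Counts of called markers in the TAC 3 d comparisons are given with and without both TAC 3 d libraries, termed the libraries that stand apart, and those that use cKO TAC 7 d also without its replicate 2. Because whole tissue was sequenced, more cells of a type and more RNA per cell cannot be told apart in any value below.

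Promoter sequence was available for 28 of the 39 markers. The 4 promoters shown belong to MHC class II genes and macrophage genes and were taken from those that hold a searched motif. Each line gives the 250 bases before the RefSeq transcription start on mouse build GRCm38.p6, 5′ to 3′ on the gene's strand. In the MHC class II promoters the capitals mark TGATTGG, the letters of the Y box that NF-Y binds. In the macrophage promoters they mark CTTCCTC, the reverse complement of GAGGAAG, a core recognised by the myeloid factor PU.1.
H2-Aa: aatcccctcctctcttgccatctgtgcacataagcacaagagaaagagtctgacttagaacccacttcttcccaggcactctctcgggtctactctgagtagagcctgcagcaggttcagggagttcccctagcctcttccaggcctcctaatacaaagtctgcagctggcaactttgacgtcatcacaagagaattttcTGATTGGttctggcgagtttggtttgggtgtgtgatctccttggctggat
H2-Eb1: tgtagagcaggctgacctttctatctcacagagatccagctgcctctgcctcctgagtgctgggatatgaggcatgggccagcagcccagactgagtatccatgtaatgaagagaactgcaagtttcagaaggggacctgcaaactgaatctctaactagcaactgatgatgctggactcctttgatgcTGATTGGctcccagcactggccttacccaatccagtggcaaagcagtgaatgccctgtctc
Trem2: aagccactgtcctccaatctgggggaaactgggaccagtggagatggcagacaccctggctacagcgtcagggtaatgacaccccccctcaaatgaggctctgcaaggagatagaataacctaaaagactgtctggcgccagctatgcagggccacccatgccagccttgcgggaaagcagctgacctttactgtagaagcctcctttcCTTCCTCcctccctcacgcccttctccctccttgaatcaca
C1qc: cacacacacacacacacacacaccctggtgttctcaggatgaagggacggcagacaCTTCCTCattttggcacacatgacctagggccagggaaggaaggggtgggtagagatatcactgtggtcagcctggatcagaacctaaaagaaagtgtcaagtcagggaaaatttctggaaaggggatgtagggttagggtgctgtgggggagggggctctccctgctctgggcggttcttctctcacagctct
The H2-Aa stretch lies at chr17:34287824-34288073 on the minus strand and H2-Eb1 at chr17:34305617-34305866 on the plus strand, with the motif starting 50 and 61 bases before the start site. The Trem2 stretch lies at chr17:48346151-48346400 on the plus strand and C1qc at chr4:136892915-136893164 on the minus strand, with the motif 41 and 194 bases before the start. Searched on both strands of 300-base windows (250 before to 50 after each start), GAGGAAG was found for 8 of the 28 markers (Mrc1, C1qc, Trem2, Itgam, Ly6c2, S100a8, Fcgr1 and Laptm5) and in 28.1% of their windows, against 13.6% of all 32851 windows. TGATTGG was found for Cd68, Plac8, H2-Aa and H2-Eb1, in 12.5% of the markers' windows against 7.82% of all windows. These matches describe letters and show no binding.

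In the ctrl sham heart, RNA of antigen presentation and of macrophages dominated the set. On a per-length scale (RPKM, which is CPM per kilobase of gene length; mean ± SD, n = 3), the level of Cd74, the class II chaperone, was 74.2 ± 20.5 and that of Lyz2, the macrophage lysozyme, was 65.6 ± 5.94. C1qa and C1qb, chains of the complement starter C1q, followed at 36.5 ± 5.12 and 34.8 ± 4.92 RPKM, and their SDs overlap. The class II chains H2-Eb1 (28.7 ± 7.83), H2-Ab1 (20.8 ± 7.39) and H2-Aa (20.5 ± 6.49) and C1qc (17.4 ± 1.84) came next, and neighbours in that order did not differ beyond their spread. Csf1r, the receptor for the macrophage growth factors CSF1 and IL-34, stood at 7.81 ± 0.597 RPKM. Among resident markers the level fell from Lyve1 (6.14 ± 1.31) through Cd163 (3.92 ± 0.887) and Mrc1 (3.35 ± 0.129) to Folr2 (1.31 ± 0.249) and Timd4 (0.909 ± 0.189). Markers of other leukocytes lay below the genes named so far. S100a9 stood at 0.413 ± 0.31, Cd79a at 0.344 ± 0.188, Plac8 at 0.232 ± 0.0455 and Cd3e at 0.0217 ± 0.0251 RPKM. Chil3 had no count in any ctrl sham library. Some macrophage and general leukocyte genes were similarly low, with Trem2 at 0.449 ± 0.083, Ptprc at 0.308 ± 0.0669, Itgam at 0.302 ± 0.0285 and Gpnmb at 0.146 ± 0.114 RPKM. The highest levels of the set were thus those of macrophage and class II genes, though not every macrophage gene was high. T cell, B cell and cytotoxic lymphocyte markers were near the detection limit.

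**Figure D1:**
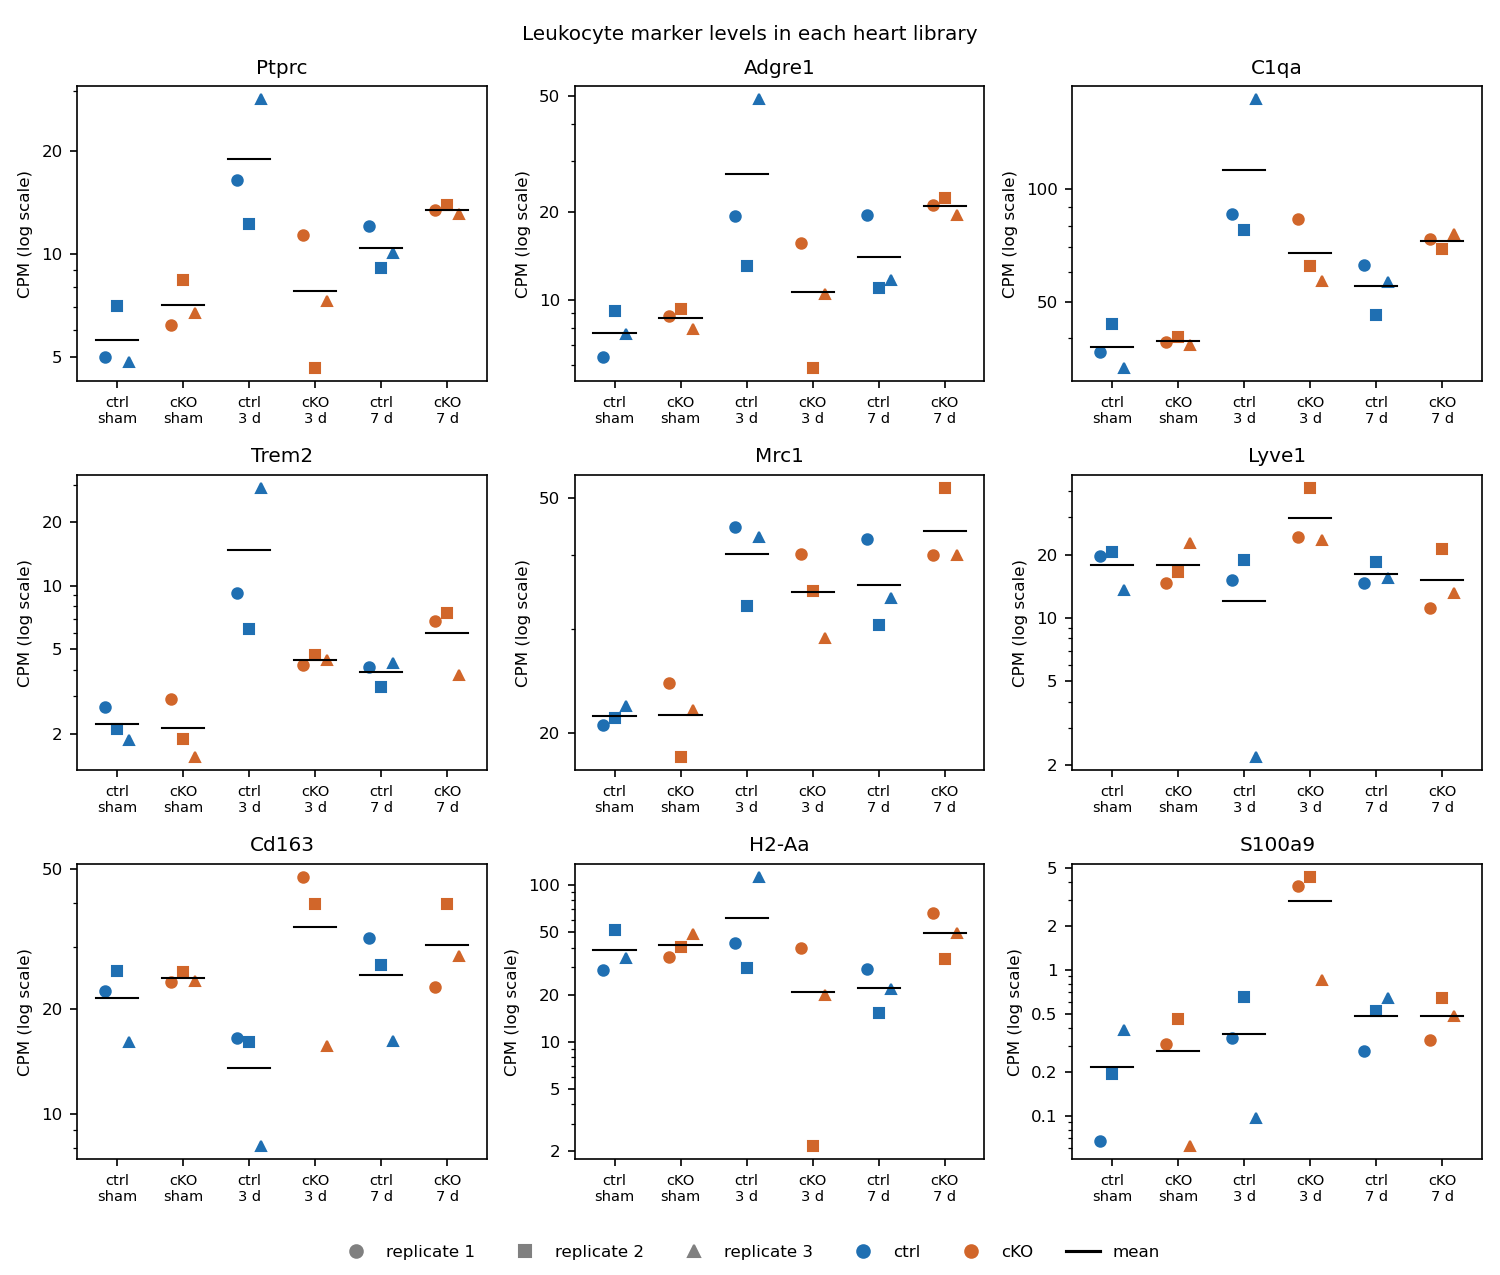
Level of 9 markers in each of the 18 libraries, in CPM on a log axis, by group; symbols give the replicate and bars the group mean. Ptprc, Adgre1, C1qa and Trem2 were highest in replicate 3 of ctrl TAC 3 d (28.4, 48.7, 174 and 28.8 CPM), the library in which Lyve1 was lowest (2.2 CPM).

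In ctrl hearts 3 d after TAC, macrophage and general leukocyte RNA rose. Of the 32 tested markers, 20 were higher than after sham and 0 lower (edgeR's quasi-likelihood test, Benjamini-Hochberg adjusted p under 0.05, termed called below), against 27.2% of all 15535 genes called in either direction and 14.8% called higher and 12.4% lower. The median log2 change of the markers was 1.55, also with Chil3 at its lower bound, against a median near 0 over all genes. The 20 were all 3 genes of all leukocytes, both adaptors, 11 of 12 macrophage genes, both lipid-handling markers, Mrc1 and Plac8. The other 4 resident markers, the 4 MHC class II genes, S100a9 and Cd79a were not called. Without replicate 3 of ctrl TAC 3 d the count was 15, the calls of Cd14, Plac8, Gpnmb, Aif1 and Cd52 being lost, and the median fell to 1.02. Without both libraries that stand apart it was 17 and the median 1.04, and the calls of Cd14, Plac8 and Gpnmb were the ones lost (0.53, 0.52 and 0.79). In the same comparison 4 of 6 fibroblast markers were higher (median log2 change 0.73), all 6 cycling cell genes were higher (3.29) and 2 of 7 cardiomyocyte markers were lower (-0.66). Without both libraries the fibroblast count was 2, and the others were the same. The part of these cell types in the marker changes was not tested.

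By 7 d the ctrl response was smaller. Cd68 and Mrc1 were called higher than after sham, 2 of 32 markers with a median change of 0.43, against 7.29% of all genes called, 4.26% higher and 3.03% lower. Without replicate 1 of ctrl TAC 7 d, or without ctrl sham replicate 1, neither was called, and without ctrl sham replicate 2 only Cd68 was. Directly between days 3 and 7 in ctrl hearts, 11 of 32 markers were lower at 7 d and 0 higher, against 14.8% of all genes called, 7.81% lower and 6.95% higher. The 11 were Csf1r, Cd14, C1qa, C1qb, C1qc, Lyz2, Trem2, Fcer1g, Tyrobp, Aif1 and Laptm5. That count rests on single libraries: it was 5 without replicate 3 of ctrl TAC 3 d, 17 without replicate 2 of ctrl TAC 3 d, 1 (Laptm5) without replicate 2 of ctrl TAC 7 d, 7 without replicate 3 of ctrl TAC 7 d and 6 without both libraries that stand apart. A fit on these 2 groups alone called 0 markers, with a median of -1.13. Over all genes that fit called 39, against 2293 in the main fit.

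In cKO hearts at TAC 3 d, 0 of 32 markers were called against cKO sham in edgeR, and 0.0% of all genes were. At an unadjusted p under 0.05 there were 13 markers, DESeq2 called 1, and the median change was 0.53 with 28 of 32 values above 0. The count was also 0 without both libraries that stand apart. At TAC 7 d, 11 markers were higher and 0 lower in cKO hearts, against 21.8% of all genes called, 11.4% higher and 10.4% lower, with a median change of 0.82. These were Ptprc, Tyrobp, Adgre1, Cd68, Csf1r, C1qa, C1qb, C1qc, Lyz2, Trem2 and Mrc1. Their adjusted p lay close to the threshold for most, and the count fell to 3, 2 and 6 when replicates 1, 2 and 3 of cKO TAC 7 d were dropped and to 6, 2 and 1 when replicates 1, 2 and 3 of cKO sham were dropped. Mrc1 remained called in each of those 6 fits. At TAC 7 d in cKO all 6 cycling cell genes were higher (median 2.34), 2 of 6 fibroblast markers were higher (median 0.52) and 2 of 7 cardiomyocyte markers were lower (median -0.44). Without replicate 2 of cKO TAC 7 d those counts were 6, 0 and 0, and the part of these cell types in the marker changes was not tested. Between days 3 and 7 in cKO hearts only S100a9 was called, lower at 7 d, against 19.5% of all genes called, 10.3% lower and 9.26% higher. The count was likewise 1 without both libraries that stand apart and without replicate 2 of cKO TAC 7 d.

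**Figure D2:**
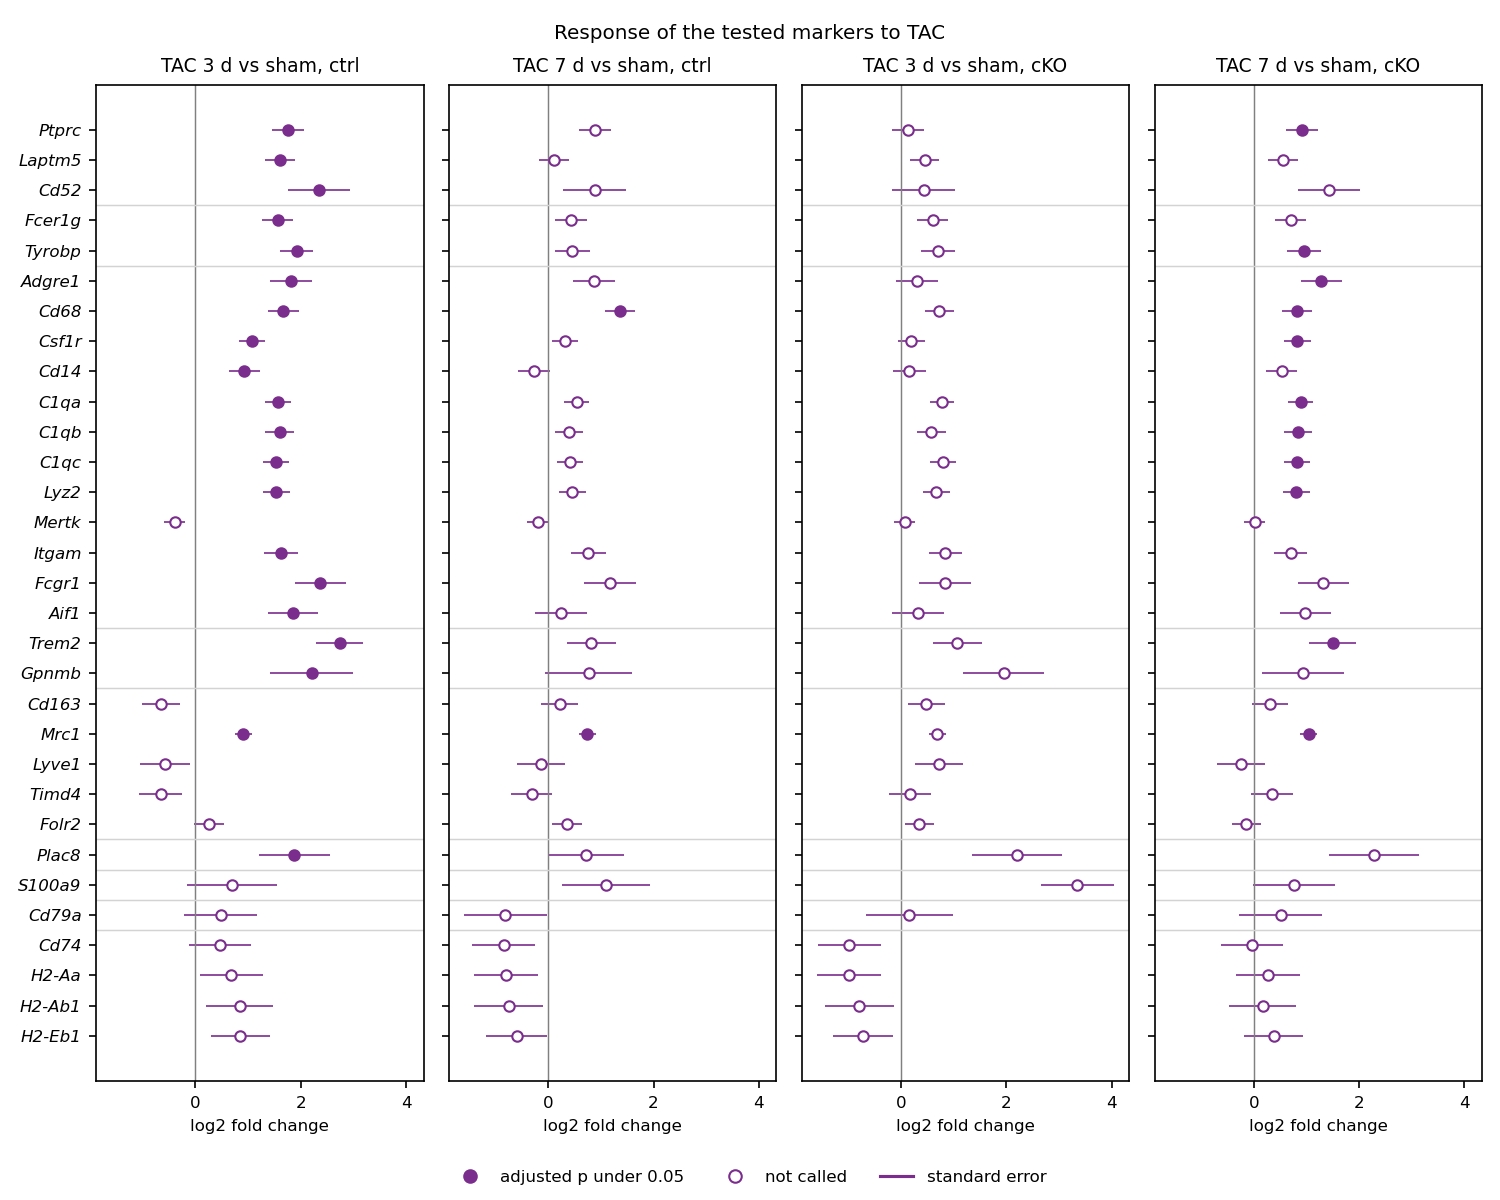
Log2 fold change of 31 tested markers against sham of the same genotype, with the standard error as a line; filled points have an adjusted p under 0.05. Chil3 is left out because it had no count in ctrl sham. Filled points number 20 for ctrl at TAC 3 d, 2 for ctrl at TAC 7 d, 0 for cKO at TAC 3 d and 11 for cKO at TAC 7 d.

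After sham no genotype difference was called. Between cKO and ctrl sham hearts no marker passed (0 of 32 in edgeR, 0 in DESeq2, 0 at an unadjusted p under 0.05), against 0.0193% of all genes called, 0.00644% higher and 0.0129% lower, with a median difference of 0.11. At TAC 3 d, 11 markers were lower in cKO than in ctrl and 2, Cd163 and S100a9, were higher, against 17.1% of all genes called, 9.36% lower and 7.73% higher. The 11 were Ptprc, Laptm5, Cd52, Tyrobp, Adgre1, Csf1r, C1qa, C1qb, Fcgr1, Aif1 and Trem2, and the median difference over the 32 was -0.82. The 2 libraries that stand apart carried much of this: without both of them 0 markers were called and the median difference was -0.29. Leaving out single libraries gave 3 calls without replicate 3 of ctrl TAC 3 d, 3 without replicate 2 of cKO TAC 3 d, 7 without replicate 3 of cKO TAC 3 d and 21 without replicate 2 of ctrl TAC 3 d. A fit on the 2 TAC 3 d groups alone called 0 markers. Over all genes that fit called 114 and the fit without both libraries 450, against 2655 in the main fit.

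Markers of other cell types are given beside this difference, with the same 17.1% of all genes as background. The 7 cardiomyocyte markers summed to 34700 to 59300 CPM in ctrl and 61300 to 68700 CPM in cKO hearts at TAC 3 d, with 1 of 7 (Pln) called higher in cKO and none of the 7 at 0 in any library. Of 6 fibroblast markers 2 (Col1a1 and Lum) were lower, and all 6 cycling cell genes were lower, their sum being 74.4 to 150 CPM in ctrl and 5.26 to 19.4 CPM in cKO libraries. Of 5 endothelial markers 0 were called. Without both libraries that stand apart 0 of 7 cardiomyocyte markers, 1 of 6 fibroblast markers and 6 of 6 cycling cell genes were called. The part of these cell types in the marker differences was not tested.

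At TAC 7 d the genotype difference pointed the other way, without a call. For 29 of 32 markers the cKO estimate was above ctrl, with a median of 0.46, but 0 were called in edgeR or DESeq2, 4 had an unadjusted p under 0.05, the lowest adjusted p was 0.217, and 0.257% of all genes were called, 0.116% higher and 0.142% lower. It was also 0 markers without replicate 2 of cKO TAC 7 d. Whether TAC changed the markers differently by genotype was tested as an interaction. At 3 d 0 markers were called (16 at an unadjusted p under 0.05, 1 in DESeq2, lowest adjusted p 0.073, for Ptprc), against 0.669% of all genes called, 0.18% upward and 0.489% downward, and 10 were called without replicate 2 of ctrl TAC 3 d. Without that replicate 1363 of all genes were called. The median interaction without both libraries that stand apart was -0.40, with 0 markers and 0 of all genes called. At 7 d 0 were called (0 at an unadjusted p under 0.05, 0 in DESeq2, lowest adjusted p 0.891), against 0.0% of all genes.

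The change of the genotype difference from 3 d to 7 d, a contrast chosen after the data were seen, was called for 17 of 32 markers, 16 upward and 1 (S100a9) downward, against 21.0% of all genes called, 11.0% upward and 10.0% downward. The median was 1.31 on the log2 scale. This contrast does not use the sham hearts, and it shares its 3 d libraries with the comparison above. It was called for 9 markers without replicate 3 of ctrl TAC 3 d, 6 without replicate 2 of ctrl TAC 7 d, 11 without replicate 3 of ctrl TAC 7 d, 12 without replicate 2 of cKO TAC 7 d and 8 without both libraries that stand apart. Csf1r, C1qb, Trem2, Ptprc, Tyrobp and Laptm5 were called with any 1 of the 12 libraries left out.

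**Figure D3:**
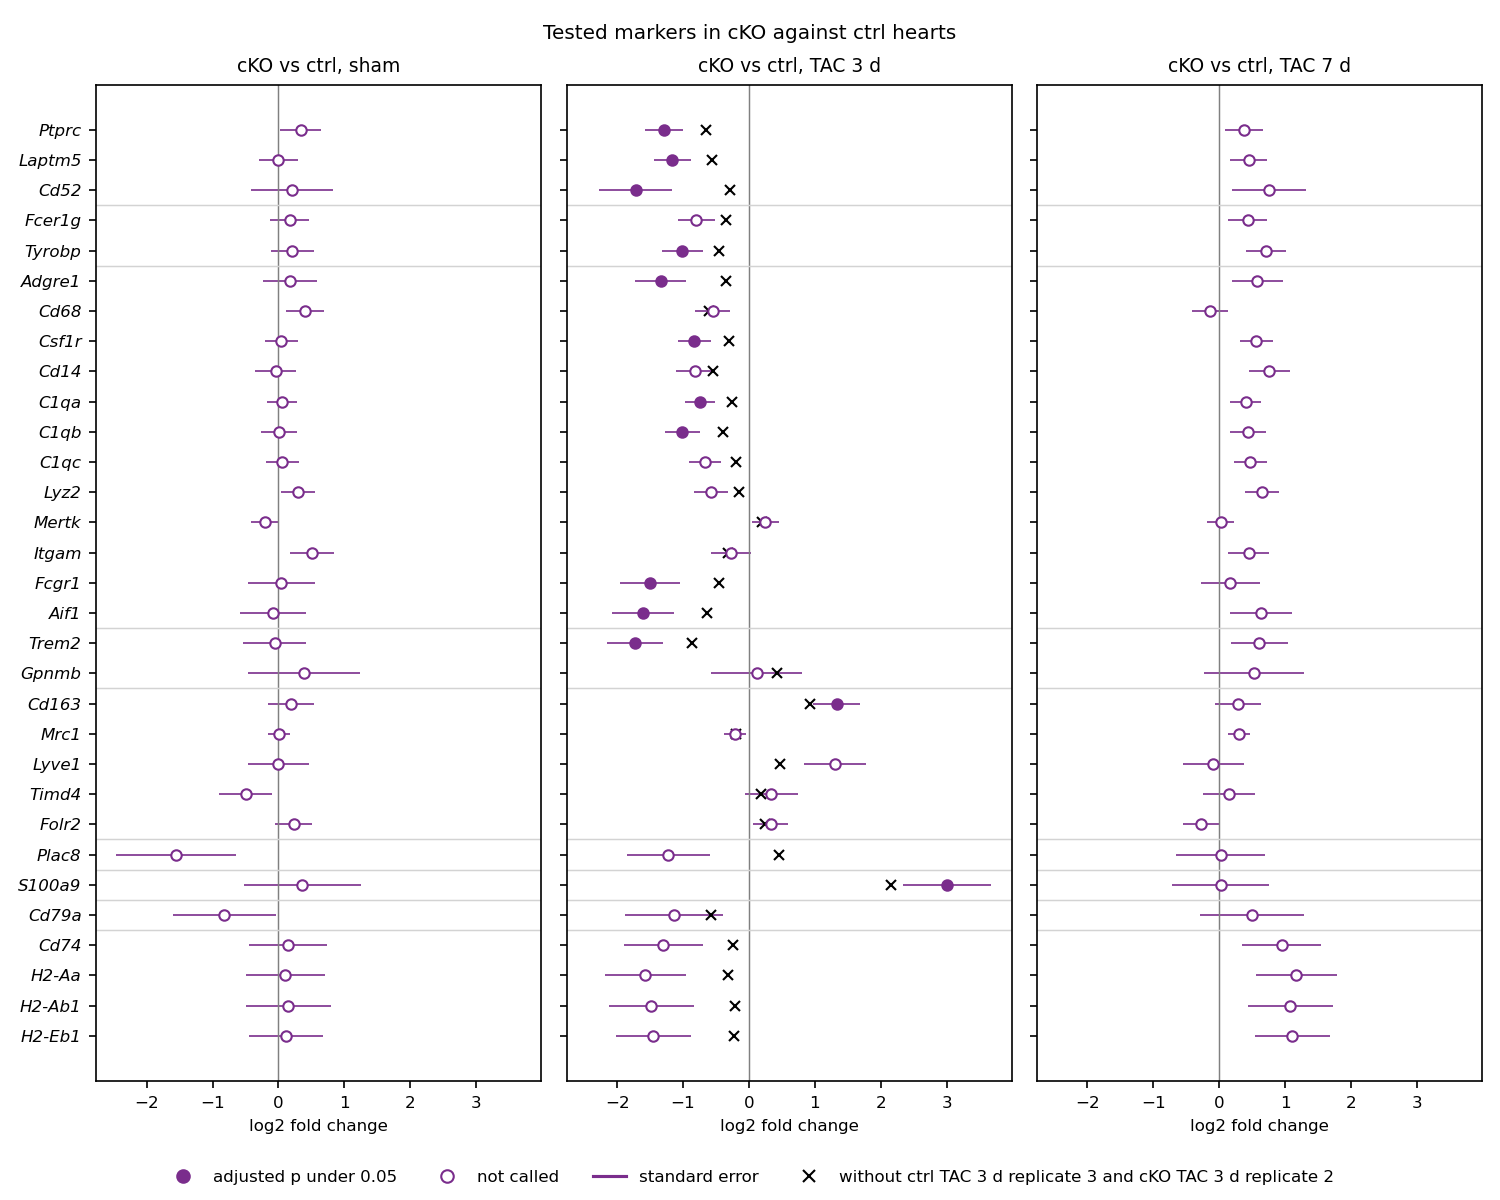
Log2 difference of cKO from ctrl hearts for 31 tested markers after sham, at TAC 3 d and at TAC 7 d, with the standard error; filled points have an adjusted p under 0.05 and crosses give the value without both TAC 3 d libraries that stand apart. Chil3 is left out. After sham none is filled, the points running from -1.55 for Plac8 to 0.51 for Itgam, at TAC 3 d 13 are filled and the crosses lie nearer to 0 than most of the points, and at TAC 7 d none is filled.

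Among genes of all leukocytes, Ptprc encodes CD45, the surface phosphatase of all nucleated blood cells. Ptprc in ctrl hearts stood at 5.01, 7.04 and 4.84 CPM after sham, 16.5, 12.3 and 28.4 CPM at TAC 3 d and 12.1, 9.14 and 10.1 CPM at TAC 7 d. Ptprc in cKO hearts stood at 6.23, 8.42 and 6.73 CPM after sham, 11.4, 4.66 and 7.31 CPM at TAC 3 d and 13.5, 13.9 and 13.1 CPM at TAC 7 d. Every ctrl TAC 3 d library was above every sham library, cKO TAC 3 d values spread from below to above the sham range, and cKO TAC 7 d libraries were tightly grouped. The log2 change of Ptprc at 3 d was 1.76 ± 0.30 (SE, adjusted p = 0.00087) in ctrl and 0.13 ± 0.30 (SE, adjusted p = 0.934) in cKO hearts, and cKO was below ctrl at 3 d by -1.29 ± 0.29 (SE, adjusted p = 0.00935). With single libraries left out this difference ranged from -1.66 to -0.90 and was called each time, but without both libraries that stand apart it was -0.65 (adjusted p = 0.146). Laptm5, a lysosomal protein that tunes antigen receptor levels, and Cd52, a small lymphocyte and myeloid surface glycoprotein, were lower in cKO at 3 d by -1.16 ± 0.28 (SE, adjusted p = 0.0122) and -1.72 ± 0.56 (SE, adjusted p = 0.0451). Both calls were lost without replicate 3 of ctrl TAC 3 d (-0.71 and -0.65) and without replicate 2 of cKO TAC 3 d (-1.0 and -1.35), and that of Cd52 also without replicate 3 of cKO TAC 3 d (-1.48). They were -0.56 and -0.28 without both libraries that stand apart.

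Tyrobp and Fcer1g encode the ITAM adaptors through which TREM2 and Fc receptors signal. Tyrobp in ctrl hearts stood at 5.41, 4.74 and 5.1 CPM after sham, 14.3, 11.2 and 32.3 CPM at TAC 3 d and 8.18, 5.16 and 7.58 CPM at TAC 7 d. Tyrobp in cKO hearts stood at 5.67, 7.16 and 4.8 CPM after sham, 10.7, 9.91 and 8.21 CPM at TAC 3 d and 11.8, 14 and 8.61 CPM at TAC 7 d. All 3 ctrl TAC 3 d libraries lay above all sham libraries, and so did all 3 cKO TAC 3 d libraries, though the latter change was not called. Tyrobp changed by 1.92 ± 0.32 (SE, adjusted p = 0.000741) at 3 d in ctrl, by 0.71 ± 0.32 (SE, adjusted p = 0.582) at 3 d in cKO and by 0.96 ± 0.32 (SE, adjusted p = 0.0403) at 7 d in cKO. The cKO to ctrl difference at 3 d was -1.01 ± 0.31 (SE, adjusted p = 0.0344). It was not called without replicate 3 of ctrl TAC 3 d (-0.43), nor without replicate 1 of cKO TAC 3 d (-1.09), 2 (-1.03) or 3 (-0.90), and was -0.46 without both libraries that stand apart. Fcer1g rose by 1.56 ± 0.29 (SE, adjusted p = 0.00147) at 3 d in ctrl and differed between genotypes by -0.80 ± 0.28 (SE, adjusted p = 0.0598), which was not called.

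Among macrophage genes, Adgre1 encodes F4/80, a surface receptor used to define mouse macrophages. Adgre1 in ctrl hearts stood at 6.35, 9.16 and 7.62 CPM after sham, 19.4, 13.1 and 48.7 CPM at TAC 3 d and 19.5, 11 and 11.7 CPM at TAC 7 d. Adgre1 in cKO hearts stood at 8.78, 9.28 and 7.97 CPM after sham, 15.7, 5.86 and 10.5 CPM at TAC 3 d and 21.1, 22.4 and 19.6 CPM at TAC 7 d. The ctrl TAC 3 d libraries ranged widely, replicate 3 being the highest of all 18, while the cKO TAC 7 d libraries were close together and above every sham library. Adgre1 rose by 1.81 ± 0.40 (SE, adjusted p = 0.00397) at 3 d in ctrl and by 1.28 ± 0.39 (SE, adjusted p = 0.0308) at 7 d in cKO hearts, and at 3 d in cKO it changed by 0.31 ± 0.40 (SE, adjusted p = 0.876). The genotype difference at 3 d was -1.34 ± 0.39 (SE, adjusted p = 0.0279). It was not called without replicate 3 of ctrl TAC 3 d (-0.63), without replicate 2 of cKO TAC 3 d (-1.05) or replicate 3 (-1.32), and was -0.34 without both libraries that stand apart.

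Csf1r in ctrl hearts stood at 34.8, 40.3 and 39.3 CPM after sham, 67.9, 52.9 and 119 CPM at TAC 3 d and 63.1, 37.8 and 41.7 CPM at TAC 7 d. Csf1r in cKO hearts stood at 44, 36.4 and 37.3 CPM after sham, 57, 35.3 and 43 CPM at TAC 3 d and 73.6, 69.6 and 66.6 CPM at TAC 7 d. All ctrl TAC 3 d libraries and all cKO TAC 7 d libraries exceeded every sham library, while cKO TAC 3 d overlapped sham. Csf1r rose by 1.07 ± 0.25 (SE, adjusted p = 0.00531) at 3 d in ctrl and by 0.83 ± 0.25 (SE, adjusted p = 0.0256) at 7 d in cKO, and between days 3 and 7 in ctrl it fell by a log2 change of -0.75 ± 0.25 (SE, adjusted p = 0.0492). The genotype difference at 3 d was -0.83 ± 0.25 (SE, adjusted p = 0.0306), a call lost without replicate 3 of ctrl TAC 3 d (-0.45) and without replicate 2 of cKO TAC 3 d (-0.68) or replicate 3 (-0.79), and -0.30 without both libraries that stand apart. The fall from 3 d to 7 d in ctrl was not called without replicate 3 of ctrl TAC 3 d (-0.37) or replicate 2 of ctrl TAC 7 d (-0.63) or 3 (-0.66).

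C1qa in ctrl hearts stood at 36.7, 43.8 and 33.4 CPM after sham, 86.2, 78 and 174 CPM at TAC 3 d and 62.7, 46.3 and 56.5 CPM at TAC 7 d. C1qa in cKO hearts stood at 39.2, 40.3 and 38.5 CPM after sham, 83.2, 62.3 and 56.8 CPM at TAC 3 d and 73.6, 69.3 and 76.1 CPM at TAC 7 d. C1qa was above every sham library in all 6 TAC 3 d libraries and all 6 TAC 7 d libraries, and the cKO and ctrl ranges at 3 d overlapped. C1qa rose by 1.57 ± 0.24 (SE, adjusted p = 0.000421) at 3 d in ctrl and by 0.89 ± 0.23 (SE, adjusted p = 0.0147) at 7 d in cKO, and the cKO change at 3 d was 0.78 ± 0.23 (SE, adjusted p = 0.412). The other C1q chains behaved much alike at 3 d in ctrl, with changes of 1.60 for C1qb and 1.53 for C1qc. cKO was below ctrl at 3 d by -0.74 ± 0.23 (SE, adjusted p = 0.0361) for C1qa and -1.01 ± 0.27 (SE, adjusted p = 0.0185) for C1qb, and for C1qc the difference was -0.67 ± 0.24 (SE, adjusted p = 0.068), not called. The C1qa and C1qb calls were lost without replicate 3 of ctrl TAC 3 d (-0.31 and -0.48), without replicate 2 of cKO TAC 3 d (-0.69 and -0.92) and without replicate 3 of cKO TAC 3 d (-0.63 and -0.95), and without both libraries that stand apart the values were -0.26 and -0.39.

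Lyz2 in ctrl hearts stood at 77.3, 91.4 and 90.3 CPM after sham, 187, 160 and 406 CPM at TAC 3 d and 145, 108 and 104 CPM at TAC 7 d. Lyz2 in cKO hearts stood at 106, 108 and 105 CPM after sham, 192, 188 and 128 CPM at TAC 3 d and 177, 200 and 183 CPM at TAC 7 d. Lyz2, the lysozyme of macrophages and neutrophils, exceeded every sham library in all ctrl TAC 3 d and all cKO TAC libraries. It rose by 1.54 ± 0.26 (SE, adjusted p = 0.00081) at 3 d in ctrl and by 0.81 ± 0.26 (SE, adjusted p = 0.0345) at 7 d in cKO, and the genotype difference at 3 d, -0.57 ± 0.26 (SE, adjusted p = 0.128), was not called.

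Cd68 in ctrl hearts stood at 4.68, 5.25 and 5.55 CPM after sham, 14.3, 14 and 21.1 CPM at TAC 3 d and 14.4, 9.6 and 15.9 CPM at TAC 7 d. Cd68 in cKO hearts stood at 9.9, 4.64 and 5.92 CPM after sham, 9.73, 15.1 and 9.17 CPM at TAC 3 d and 11.1, 9.92 and 15.1 CPM at TAC 7 d. All 6 ctrl TAC libraries were above all ctrl sham libraries for Cd68, a lysosomal glycoprotein of phagocytes, and its change from 3 d to 7 d in ctrl, -0.31 ± 0.27 (SE, adjusted p = 0.458), was not called. It rose by 1.67 ± 0.29 (SE, adjusted p = 0.000852) at 3 d and 1.36 ± 0.29 (SE, adjusted p = 0.0133) at 7 d in ctrl and by 0.82 ± 0.28 (SE, adjusted p = 0.0451) at 7 d in cKO. The 7 d call in ctrl was lost without replicate 1 of ctrl TAC 7 d (1.30) or ctrl sham replicate 1 (1.30).

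Of the remaining macrophage genes, Fcgr1, the high-affinity IgG receptor CD64, had the largest called change among macrophage genes at 3 d in ctrl, 2.37 ± 0.48 (SE, adjusted p = 0.00246), and differed between genotypes by -1.50 ± 0.45 (SE, adjusted p = 0.0335). Aif1, which encodes the actin-binding protein IBA1, changed by 1.85 ± 0.48 (SE, adjusted p = 0.00985) and differed by -1.61 ± 0.47 (SE, adjusted p = 0.0277). Without replicate 3 of ctrl TAC 3 d the genotype differences of Fcgr1 and Aif1 were -0.62 and -1.02, without replicate 2 of cKO TAC 3 d they were -1.33 and -1.23, and without replicate 3 of cKO TAC 3 d that of Fcgr1 was -1.40, none of them called. They were -0.46 and -0.64 without both libraries that stand apart. Itgam, the integrin chain CD11b, and Cd14, the lipopolysaccharide co-receptor, rose by 1.62 and 0.93 at 3 d in ctrl, the latter call being lost without replicate 3 of ctrl TAC 3 d (0.53) or without ctrl sham replicate 2 (0.90) or 3 (0.82). Mertk, the receptor for clearing dying cells, was the exception among the 12 macrophage genes, with -0.39 ± 0.20 (SE, adjusted p = 0.16) in ctrl at 3 d.

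Both lipid-handling markers rose in ctrl hearts at TAC 3 d. Trem2 encodes a lipid-sensing receptor that signals through TYROBP. Trem2 in ctrl hearts stood at 2.67, 2.11 and 1.87 CPM after sham, 9.26, 6.27 and 28.8 CPM at TAC 3 d and 4.12, 3.33 and 4.33 CPM at TAC 7 d. Trem2 in cKO hearts stood at 2.93, 1.89 and 1.56 CPM after sham, 4.24, 4.73 and 4.44 CPM at TAC 3 d and 6.83, 7.41 and 3.77 CPM at TAC 7 d. Every TAC library of either genotype was above every sham library for Trem2, and replicate 3 of ctrl TAC 3 d was the highest. Trem2 rose by 2.74 ± 0.45 (SE, adjusted p = 0.000698) at 3 d in ctrl, and between days 3 and 7 it fell there by a log2 change of -1.91 ± 0.43 (SE, adjusted p = 0.00999). In cKO it rose by 1.5 ± 0.45 (SE, adjusted p = 0.0283) at 7 d. The genotype difference at 3 d was -1.73 ± 0.42 (SE, adjusted p = 0.013), was not called without replicate 3 of ctrl TAC 3 d (-0.82) and was -0.87 without both libraries that stand apart.

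Gpnmb encodes a glycoprotein of lipid-laden macrophages. Gpnmb in ctrl hearts stood at 0.468, 0.576 and 1.81 CPM after sham, 1.48, 1.8 and 9.9 CPM at TAC 3 d and 1.61, 0.849 and 2.42 CPM at TAC 7 d. Gpnmb in cKO hearts stood at 1.68, 0.802 and 1.25 CPM after sham, 2.68, 10.1 and 1.8 CPM at TAC 3 d and 2.26, 3.27 and 1.56 CPM at TAC 7 d. A single library in each TAC 3 d group set the Gpnmb mean, namely ctrl replicate 3 and cKO replicate 2, the libraries that stand apart. Gpnmb rose by 2.21 ± 0.79 (SE, adjusted p = 0.0466) at 3 d in ctrl, a call lost without replicate 3 of ctrl TAC 3 d (0.79) or without ctrl sham replicate 1 (1.88) or 2 (1.94).

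Resident macrophage markers, apart from Mrc1, were not called in the response to TAC. Of the 5, Mrc1 was called higher in ctrl at 3 d and the other 4 had changes between -0.66 and 0.26. The median of all 5, Mrc1 included, was -0.58, against 1.59 for the 12 macrophage genes. That median depended on the libraries that stand apart. Without both of them the ctrl changes at 3 d were -0.38 for Cd163, -0.27 for Timd4, -0.07 for Lyve1, 0.43 for Folr2 and 0.88 for Mrc1. Lyve1 encodes a hyaluronan receptor that lymphatic endothelium also carries. Lyve1 in ctrl hearts stood at 19.6, 20.6 and 13.6 CPM after sham, 15.1, 18.8 and 2.2 CPM at TAC 3 d and 14.7, 18.5 and 15.5 CPM at TAC 7 d. Lyve1 in cKO hearts stood at 14.7, 16.5 and 22.6 CPM after sham, 24.3, 41.2 and 23.5 CPM at TAC 3 d and 11.2, 21.2 and 13.2 CPM at TAC 7 d. Lyve1 in replicate 3 of ctrl TAC 3 d was the lowest of all 18 libraries, while cKO TAC 3 d libraries were each above every sham library. Its change at 3 d was -0.58 ± 0.47 (SE, adjusted p = 0.375) in ctrl and 0.72 ± 0.46 (SE, adjusted p = 0.692) in cKO, and the genotype difference at 3 d was 1.31 ± 0.47 (SE, adjusted p = 0.0623), none of them called. Without both libraries that stand apart the ctrl change was -0.07 and the genotype difference 0.47. The 6 lymphatic endothelial genes summed to 76.1 to 139 CPM over the 18 libraries, and 89.6 CPM in the library with the lowest Lyve1.

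Cd163 encodes the scavenger receptor for haemoglobin bound to haptoglobin. Cd163 in ctrl hearts stood at 22.4, 25.7 and 16.1 CPM after sham, 16.5, 16.1 and 8.13 CPM at TAC 3 d and 31.9, 26.7 and 16.2 CPM at TAC 7 d. Cd163 in cKO hearts stood at 23.9, 25.5 and 24 CPM after sham, 47.4, 39.7 and 15.6 CPM at TAC 3 d and 23, 39.8 and 28.2 CPM at TAC 7 d. The 2 highest cKO TAC 3 d libraries were above every ctrl library of any group, and the third lay among the ctrl TAC 3 d values. Neither genotype's change from sham was called, at -0.66 ± 0.36 (SE, adjusted p = 0.181) in ctrl and 0.48 ± 0.35 (SE, adjusted p = 0.738) in cKO. The genotype difference at 3 d was 1.33 ± 0.36 (SE, adjusted p = 0.0191), and it was not called without replicate 3 of ctrl TAC 3 d (1.04), replicate 1 of cKO TAC 3 d (1.02) or replicate 2 of cKO TAC 3 d (1.21), and was 0.92 without both libraries that stand apart.

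Mrc1 encodes the mannose receptor CD206. Mrc1 in ctrl hearts stood at 20.6, 21.2 and 22.2 CPM after sham, 44.7, 32.8 and 43 CPM at TAC 3 d and 42.7, 30.5 and 33.8 CPM at TAC 7 d. Mrc1 in cKO hearts stood at 24.3, 18.2 and 21.8 CPM after sham, 40.2, 34.8 and 28.9 CPM at TAC 3 d and 40.1, 52 and 40 CPM at TAC 7 d. Every TAC library lay above every sham library for Mrc1, in both genotypes and on both days. Mrc1 changed by 0.91 ± 0.16 (SE, adjusted p = 0.00116) and 0.74 ± 0.16 (SE, adjusted p = 0.016) at 3 d and 7 d in ctrl and by 0.69 ± 0.16 (SE, adjusted p = 0.343) and 1.04 ± 0.16 (SE, adjusted p = 0.00168) in cKO hearts. The 7 d call in ctrl was lost without replicate 1 of ctrl TAC 7 d (0.59), ctrl sham replicate 1 (0.72) or ctrl sham replicate 2 (0.74).

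Timd4, the phosphatidylserine receptor TIM4, and Folr2, folate receptor beta, were low throughout. Timd4 in ctrl hearts stood at 2.01, 2.37 and 1.55 CPM after sham, 1.93, 1.31 and 0.526 CPM at TAC 3 d and 1.5, 1.18 and 2.1 CPM at TAC 7 d. Timd4 in cKO hearts stood at 1.18, 1.37 and 1.62 CPM after sham, 1.75, 0.901 and 2.03 CPM at TAC 3 d and 1.87, 1.4 and 2.03 CPM at TAC 7 d. Timd4 was lowest in replicate 3 of ctrl TAC 3 d, and its groups overlapped. Folr2 in ctrl hearts stood at 1.87, 1.73 and 2.45 CPM after sham, 2.44, 2.94 and 1.87 CPM at TAC 3 d and 3.28, 2.42 and 2.04 CPM at TAC 7 d. Folr2 in cKO hearts stood at 2.37, 2.63 and 2.12 CPM after sham, 3.43, 2.55 and 3.09 CPM at TAC 3 d and 1.43, 2.28 and 2.75 CPM at TAC 7 d. All 3 cKO TAC 3 d libraries were above the 3 ctrl sham libraries for Folr2, while cKO TAC 3 d overlapped cKO sham and ctrl TAC 3 d. Neither gene was called in any of the 12 contrasts.

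The 4 monocyte markers of the set were too sparse for firm statements, and raw counts are given. Ccr2, a monocyte gene outside the set, had higher levels in ctrl hearts at TAC 3 d and is given further below. Ly6c2 encodes a surface antigen of inflammatory monocytes. Ly6c2 in ctrl hearts stood at 3, 5 and 7 counts after sham, 1, 9 and 17 counts at TAC 3 d and 2, 0 and 7 counts at TAC 7 d. Ly6c2 in cKO hearts stood at 0, 3 and 23 counts after sham, 6, 5 and 2 counts at TAC 3 d and 6, 5 and 5 counts at TAC 7 d. Ly6c2 was untested, and its highest count was in cKO sham replicate 3. Plac8, a small cysteine-rich protein of monocytes and other immune cells, was tested because 5 libraries were above the filter level. Plac8 in ctrl hearts stood at 5, 5 and 7 counts after sham, 8, 11 and 63 counts at TAC 3 d and 11, 5 and 14 counts at TAC 7 d. Plac8 in cKO hearts stood at 3, 1 and 2 counts after sham, 15, 3 and 10 counts at TAC 3 d and 8, 10 and 14 counts at TAC 7 d. The ctrl TAC 3 d counts came mostly from replicate 3, and the change of 1.88 ± 0.67 (SE, adjusted p = 0.0472) became 0.52 without it. The Plac8 call was also lost without ctrl sham replicate 1 (1.81), 2 (1.78) or 3 (2.04).

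Chil3 encodes the chitinase-like protein Ym1, made by alternatively activated macrophages and some monocytes. Chil3 in ctrl hearts stood at 0, 0 and 0 counts after sham, 3, 3 and 21 counts at TAC 3 d and 5, 2 and 11 counts at TAC 7 d. Chil3 in cKO hearts stood at 0, 2 and 1 counts after sham, 4, 56 and 0 counts at TAC 3 d and 7, 18 and 5 counts at TAC 7 d. Against a floor of 3 counts over the ctrl sham group, its ctrl level was at least 7.29-fold higher at TAC 3 d (27 counts over the group) and at least 5.64-fold higher at TAC 7 d (18 counts). Neither change was called (adjusted p = 0.102 and 0.221 in edgeR). Replicate 3 of ctrl TAC 3 d held 21 of the 27 counts, and without it the level at TAC 3 d was at least 2.56-fold higher. The highest count was in replicate 2 of cKO TAC 3 d, and another replicate of that group had 0. Arg1, the arginase of alternatively activated macrophages, had few reads. Arg1 in ctrl hearts stood at 3, 1 and 1 counts after sham, 0, 1 and 5 counts at TAC 3 d and 0, 0 and 0 counts at TAC 7 d. Arg1 in cKO hearts stood at 0, 2 and 0 counts after sham, 0, 7 and 0 counts at TAC 3 d and 8, 4 and 2 counts at TAC 7 d. Arg1 was untested, and its counts showed no group that stood clear of the others.

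The 2 neutrophil genes of the set had their highest mean levels in cKO hearts at TAC 3 d. The sum of 11 further granulocyte genes was not highest there by its group median. That median was 13.6 CPM (6.64 to 60.4 CPM), against 15.7 CPM in ctrl and 15.0 CPM in cKO hearts at TAC 7 d. S100a8 and S100a9 encode the subunits of calprotectin. S100a8 in ctrl hearts stood at 0, 2 and 2 counts after sham, 0, 3 and 5 counts at TAC 3 d and 4, 4 and 2 counts at TAC 7 d. S100a8 in cKO hearts stood at 1, 0 and 2 counts after sham, 33, 28 and 5 counts at TAC 3 d and 3, 6 and 6 counts at TAC 7 d. S100a9 in ctrl hearts stood at 1, 3 and 6 counts after sham, 6, 12 and 2 counts at TAC 3 d and 5, 8 and 10 counts at TAC 7 d. S100a9 in cKO hearts stood at 5, 8 and 1 counts after sham, 60, 57 and 15 counts at TAC 3 d and 6, 11 and 8 counts at TAC 7 d. Both genes had their highest counts in cKO TAC 3 d replicates 1 and 2, and S100a9 in all 3 cKO TAC 3 d libraries was above every other library. S100a8 was untested. S100a9 was higher in cKO than ctrl at TAC 3 d by 3.01 ± 0.67 (SE, adjusted p = 0.00824), with a range of 2.51 to 3.72 when single libraries were left out, called each time, and 2.15 (adjusted p = 0.123) without both libraries that stand apart. In cKO hearts it fell from 3 d to 7 d by a log2 change of -2.59 ± 0.65 (SE, adjusted p = 0.014), which was not called without replicate 1 of cKO TAC 3 d (-2.37), replicate 2 of cKO TAC 3 d (-2.22) or replicate 1 of cKO TAC 7 d (-2.37). The rise from sham in cKO, 3.35 ± 0.70 (SE, adjusted p = 0.343), was not called, nor was the interaction at 3 d, 2.65 ± 1.16 (SE, adjusted p = 0.205).

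Lymphocyte markers were barely detected. Cd3e, a chain of the T cell receptor complex, had 0 to 5 counts per library, Cd3g 0 to 7, the B cell gene Ms4a1 (CD20) 0 to 12 and Nkg7, a granule protein of cytotoxic cells, 0 to 8, and none of these was tested. Cd3e in ctrl hearts stood at 3, 0 and 1 counts after sham, 2, 1 and 2 counts at TAC 3 d and 0, 2 and 0 counts at TAC 7 d. Cd3e in cKO hearts stood at 3, 2 and 3 counts after sham, 4, 0 and 0 counts at TAC 3 d and 2, 0 and 5 counts at TAC 7 d. Nkg7 in ctrl hearts stood at 0, 4 and 4 counts after sham, 4, 2 and 8 counts at TAC 3 d and 5, 1 and 4 counts at TAC 7 d. Nkg7 in cKO hearts stood at 2, 0 and 1 counts after sham, 6, 0 and 2 counts at TAC 3 d and 3, 2 and 8 counts at TAC 7 d. No group stood apart in either gene. Cd79a, part of the B cell receptor, was tested because 4 libraries were above the filter level. Cd79a in ctrl hearts stood at 9, 3 and 11 counts after sham, 6, 18 and 16 counts at TAC 3 d and 8, 5 and 1 counts at TAC 7 d. Cd79a in cKO hearts stood at 4, 8 and 2 counts after sham, 11, 0 and 4 counts at TAC 3 d and 8, 6 and 7 counts at TAC 7 d. Its groups overlapped, and it was called in none of the 12 contrasts.

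MHC class II genes were called in no comparison with sham and in none between genotypes. H2-Aa in ctrl hearts stood at 28.9, 52.1 and 34.3 CPM after sham, 43, 29.8 and 112 CPM at TAC 3 d and 29.1, 15.2 and 21.9 CPM at TAC 7 d. H2-Aa in cKO hearts stood at 35, 40.3 and 48.7 CPM after sham, 40, 2.18 and 19.9 CPM at TAC 3 d and 66.4, 33.6 and 49.2 CPM at TAC 7 d. Cd74 in ctrl hearts stood at 83.1, 137 and 93.3 CPM after sham, 114, 81.3 and 240 CPM at TAC 3 d and 73.7, 39.6 and 61.6 CPM at TAC 7 d. Cd74 in cKO hearts stood at 103, 113 and 133 CPM after sham, 117, 7.36 and 51.7 CPM at TAC 3 d and 164, 65.2 and 110 CPM at TAC 7 d. In ctrl hearts H2-Aa and Cd74 were highest in TAC 3 d replicate 3, and in cKO hearts TAC 3 d replicate 2 held by far the lowest values of all 18 libraries. H2-Aa changed by 0.68 ± 0.60 (SE, adjusted p = 0.419) at 3 d in ctrl and -0.99 ± 0.61 (SE, adjusted p = 0.689) in cKO, and Cd74 by 0.47 ± 0.59 (SE, adjusted p = 0.59) and -0.98 ± 0.60 (SE, adjusted p = 0.686). At TAC 3 d all 4 class II genes were lower in cKO than ctrl, by -1.57 to -1.30, with standard errors of 0.57 to 0.65. All 4 had an unadjusted p under 0.05 in edgeR, and the lowest adjusted p was 0.0853. Without both libraries that stand apart the differences were -0.31 to -0.21. Between days 3 and 7 in ctrl the 4 changed by -1.59 to -1.31, all 4 at an unadjusted p under 0.05, with a lowest adjusted p of 0.0919. Those changes were -0.85 to -0.69 without both libraries. The change of the genotype difference from 3 d to 7 d was 2.74 ± 0.86 (SE, adjusted p = 0.0348) for H2-Aa and 2.56 ± 0.80 (SE, adjusted p = 0.0338) for H2-Eb1, while for Cd74 and H2-Ab1 it was 2.26 ± 0.85 (SE, adjusted p = 0.068) and 2.56 ± 0.93 (SE, adjusted p = 0.0585). Without both libraries that stand apart the H2-Aa and H2-Eb1 values were 1.48 and 1.32 and neither was called.

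The balance between class II and complement RNA within a library was lower in every TAC 3 d library than in any sham library, given here as a description with no test. The ratio of the summed level of Cd74, H2-Aa, H2-Ab1 and H2-Eb1 to that of C1qa, C1qb and C1qc was 1.59, 2.26 and 1.88 in ctrl sham and 1.75, 2.0 and 2.46 in cKO sham libraries. At TAC 3 d it was 1.01, 0.76 and 1.12 in ctrl and 1.09, 0.0953 and 0.669 in cKO. At TAC 7 d it was 0.867, 0.675 and 0.88 in ctrl and 1.79, 0.792 and 1.17 in cKO, and only cKO replicate 1 reached the sham range. The C1q sum in replicate 3 of ctrl TAC 3 d, 514 CPM, was above the 97.3 to 241 CPM of the other 17 libraries, and its class II ratio lay within theirs. In replicate 2 of cKO TAC 3 d the class II sum was 16.3 CPM, against 83.9 to 576 CPM in the others, with a C1q sum of 171 CPM. Lyve1 per 100 CPM of C1q was 0.428 in replicate 3 of ctrl TAC 3 d, against 5.7 to 24.1 in the other 17.

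**Figure D4:**
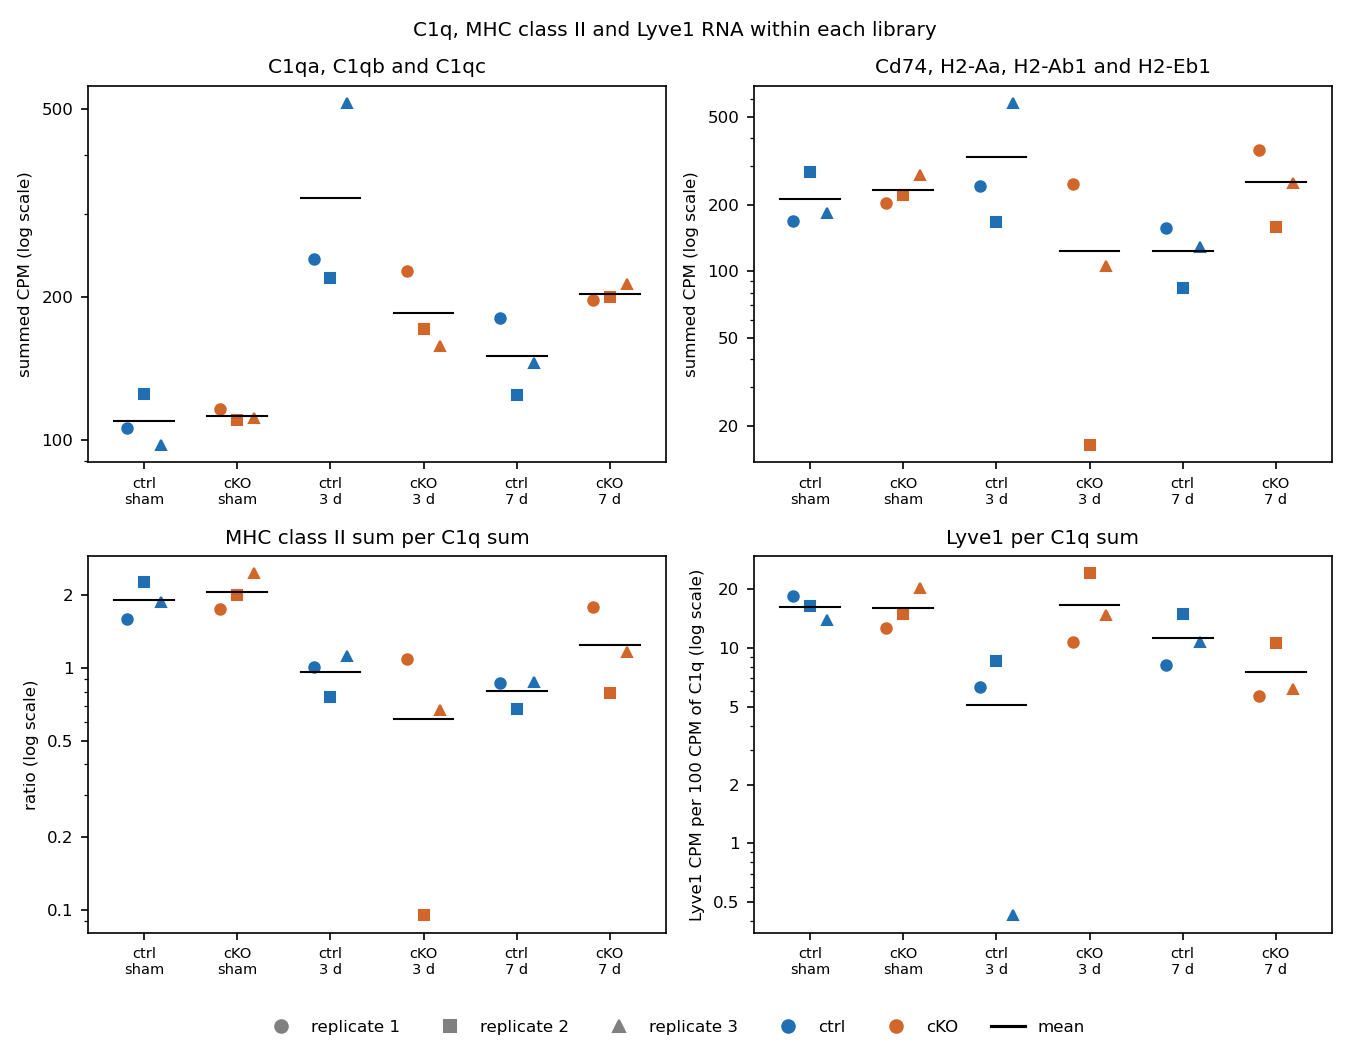
Summed level of the 3 C1q chains and of the 4 MHC class II genes, their ratio, and Lyve1 per 100 CPM of C1q, for each library on log axes; bars give group means. The class II to C1q ratio is 1.59 to 2.46 in the 6 sham libraries and 0.0953 to 1.12 in the 6 TAC 3 d libraries.

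Further macrophage and monocyte genes, from a list drawn up with earlier results of these data known, give the wider pathway. Of 24 tested genes, 20 were higher at TAC 3 d in ctrl (median 1.58), where 14.8% of all genes were, and 4 at 7 d (median 0.58), where 4.26% were. Without replicate 3 of ctrl TAC 3 d the first count was 18 (median 1.23), and the second was 0 without ctrl sham replicate 1 or 2 or replicate 1 of ctrl TAC 7 d. Between days 3 and 7 in ctrl 15 fell (median -1.04), against 7.81% of all genes, but 3 did without replicate 3 of ctrl TAC 3 d, 2 without replicate 2 of ctrl TAC 7 d, 4 without its replicate 3 and 5 without both libraries that stand apart. In cKO 0 were called at 3 d (median 0.56), where 0.0% of all genes were, and 17 were higher at 7 d (median 1.08), against 11.4% of all genes. The count at 7 d was 6 without any 1 of the cKO sham libraries, and 10, 6 and 13 without replicates 1, 2 and 3 of cKO TAC 7 d. At TAC 3 d 11 of the 24 were lower in cKO than ctrl (median -0.87), against 9.36% of all genes, 5 were without replicate 3 of ctrl TAC 3 d, 7 without replicate 2 of cKO TAC 3 d and 2 without both (median -0.55). Cx3cr1, the fractalkine receptor, and Ccr2, the monocyte receptor for CCL2, were lower in cKO by -2.83 ± 0.46 (SE, adjusted p = 0.00179) and -2.90 ± 0.60 (SE, adjusted p = 0.00577), and Irf8, a transcription factor of monocytes and dendritic cells, by -1.18 ± 0.24 (SE, adjusted p = 0.0047). Ccr2 stood at 14, 3.54 and 32.6 CPM in ctrl and 3.18, 0.676 and 2.76 CPM in cKO hearts at TAC 3 d, so replicate 2 of ctrl was close to the cKO range. Without both libraries that stand apart Cx3cr1 was still called (-1.85, adjusted p = 0.0199 in edgeR), while Ccr2 and Irf8 were not (-1.59 and -0.88, adjusted p = 0.0982 and 0.0588). Of 8 genes of class II regulation and peptide loading 7 were tested and 0 were called between genotypes at 3 d, against 17.1% of all genes. Their median difference was -0.98, with 1 of the 7 above 0. In edgeR 4 of the 7 had an unadjusted p under 0.05, and the lowest adjusted p was 0.0505. Of 19 further lymphocyte genes 7 were tested, and Cd4 alone was lower in cKO at 3 d (-1.74 ± 0.42, SE, adjusted p = 0.0124; -1.52 and not called without both libraries), the antibody gene Ighm standing at 0.451 CPM in replicate 2 of cKO TAC 3 d and 3.44 to 15.7 CPM in the other 17 libraries.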

How the data were processed

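RNA from whole mouse hearts was sequenced with Illumina TruSeq libraries, per the labels' protocols. For each heart and gene the authors' table holds raw counts as whole numbers, used here as deposited, together with a gene length column that served for RPKM. The submitters' processing notes name Bowtie 0.12.2 and the genome build mm9; the step from alignment to counts was not given in the sources used here, and sequences and their coordinates were taken from RefSeq GRCm38.p6 instead. Of 54532 genes, 15535 passed edgeR's filter on low counts (minimum count 10), and they held 99.9% of all counts. edgeR 4.0.16 in R 4.3.3 was fitted with TMM scaling and 1 model of 6 groups over 18 libraries, so the groups share an estimate of spread. Quasi-likelihood tests gave p-values adjusted by Benjamini-Hochberg over all 15535 genes, and genes with an adjusted p under 0.05 are termed called. Standard errors are the log2 change divided by the root of the F statistic. DESeq2 1.42.0, other scalings, no filter, a replicate block, fits on the compared groups alone and leaving out each library were alternatives, and code was tested on simulated data. The named genes are the 39 markers, with every library's value for the lead markers of each role. Laptm5, Cd52, C1qb, Fcgr1 and Aif1, also called between genotypes, are given as log2 differences without library values. At most 3 called genes of a further list were named per comparison. Retnlg, Cxcr2, Mmp8, Ighm and Spp1 were named in addition, for their levels in some libraries. The fits of the further lists with libraries left out, like those without both TAC 3 d libraries that stand apart, were added after the data were seen. The members, lists and tests were chosen with earlier results of these data known. The series' neonatal rat cell samples were not analysed here. Replicates of a group differed by more than sampling noise (chi-square per degree of freedom 7.09 to 147), so no library was counted as a repeat of another.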

Additional observations from a re-analysis of the deposited data

Results flagged for a closer look

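The genotype difference changed between the days. In the contrast of the cKO to ctrl difference at TAC 7 d with that at TAC 3 d (edgeR's quasi-likelihood test, 3 libraries a group), 16 markers moved upward: Lyz2 by 1.22, C1qa by 1.15, C1qb by 1.46, C1qc by 1.14, Csf1r by 1.38, H2-Aa by 2.74, H2-Eb1 by 2.56, Laptm5 by 1.61, Adgre1 by 1.92, Ptprc by 1.66, Fcer1g by 1.23, Tyrobp by 1.72, Cd14 by 1.57, Trem2 by 2.34, Cd52 by 2.46 and Aif1 by 2.25 on the log2 scale. S100a9 moved the other way, by -2.99. Each was picked out because this test of the difference between the 2 days passed an adjusted p of 0.05, where 21.0% of all genes did. The contrast was chosen after the data were seen. Without both TAC 3 d libraries that stand apart 8 markers were called, and Adgre1, C1qa, C1qc, Fcer1g, Aif1, Cd52, H2-Aa, H2-Eb1 and S100a9 were not among them (0.92, 0.66, 0.67, 0.77, 1.28, 1.02, 1.48, 1.32 and -2.13). The part of these libraries' cell make-up in the contrast was not tested.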

How the results depend on the processing

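Of 1063 recomputed values for the 75 called results of the 39 markers, 817 kept direction and call, 246 lost the call and 0 reversed. Without the filter on low counts, counts of called markers were 9 for ctrl at TAC 7 d, 21 for ctrl 7 d against 3 d, 10 for cKO at 3 d, 18 for cKO at 7 d, 11 for cKO 7 d against 3 d, 24 and 7 for cKO against ctrl at 3 d and 7 d, and 21 for the interaction at 3 d. The fit without the filter took in all 39 markers and called 1715, 2780, 219, 3666, 3365, 3300, 1149 and 1597 of all genes, in that order. The main fit called 1132, 2293, 0, 3380, 3037, 2655, 40 and 104 of all genes. On the compared groups alone the counts of called markers were 9 for ctrl at TAC 7 d, 0 for ctrl 7 d against 3 d, 0 for cKO against ctrl at 3 d and 5 for the change of that difference. Those fits called 2569, 39, 114 and 1316 of all genes, in the same order. DESeq2 gave 1 for cKO at 3 d, 2 for cKO 7 d against 3 d and 1 for the interaction at 3 d. Without both TAC 3 d libraries that stand apart, chosen after seeing the data, they were 6, 0 and 8 for ctrl 7 d against 3 d, cKO against ctrl at 3 d and the change of that difference. Leaving out 1 library gave 15 to 20 for ctrl at 3 d, 0 to 2 for ctrl at 7 d, 1 to 17 for ctrl 7 d against 3 d, 0 to 0 for cKO at 3 d, 1 to 6 for cKO at 7 d, 0 to 2 for cKO 7 d against 3 d, 3 to 21 for cKO against ctrl at 3 d, 0 to 10 for the interaction at 3 d and 6 to 22 for the change of the difference. The causes were not tested. Scaling by library totals moved the median of all genes by up to 0.31 (change of the difference) and reversed no called marker, with 82.4% instead of 54.6% of called genes higher for ctrl at 3 d.

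Same-numbered libraries of different groups deviated together only weakly (correlations -0.159 to 0.239), so the numbers were not taken to pair samples. With a replicate block the counts were 19, 2, 12, 0, 11 and 1 in the 6 TAC comparisons in the order given in the report, 0, 11 and 0 between genotypes after sham, at 3 d and at 7 d, 0 and 0 for the interactions and 17 for the change of the difference. Depth limits Ly6c2, Arg1, S100a8, Cd3e, Cd3g, Ms4a1 and Nkg7, which had too few counts to test.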

Other observations

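Retnlg, Cxcr2 and Mmp8 were 3 of 11 further granulocyte genes, picked for their levels in some libraries. They were high in replicates 1 and 2 of cKO at TAC 3 d, as S100a8 and S100a9 were. Their levels there were no more than 1.18 CPM and are described with no test. By the sum of all 11 replicate 1 was not among the highest, at 13.6 CPM against 60.4 CPM in replicate 2 and 42.0 CPM in replicate 2 of cKO TAC 7 d. The sum was also above that of replicate 1 in ctrl TAC 7 d replicates 1 and 3 (15.7 and 18.6 CPM) and cKO TAC 7 d replicate 3 (15.0 CPM). Retnlg, a neutrophil resistin-like gene, stood at 1.18, 1.05 and 0.225 CPM in cKO hearts at TAC 3 d and at 0 to 0.249 CPM in the other 15 libraries. Cxcr2, the neutrophil chemokine receptor, stood at 0.436, 1.05 and 0.169 CPM in the same 3 libraries and Mmp8, a neutrophil collagenase, at 0.561, 0.3 and 0.113 CPM. Of the 11 further granulocyte genes 3 were tested. Their cKO to ctrl differences at TAC 3 d ran from -0.67 to 3.40, 2 of the 3 being above 0, and 1 was called, against 17.1% of all genes. That was Lcn2, which encodes an iron-binding protein of neutrophils and injured tissue, higher in cKO by 3.40 ± 0.88 (SE, adjusted p = 0.0168). Lcn2 stood at 5.24, 53.5 and 4.33 CPM there, so replicate 2 set the mean, and without it the difference was 1.28 and not called. The Lcn2 call was also lost without replicate 1 (3.22) or 3 (3.35) of ctrl TAC 3 d. Of 6 mast cell genes 5 were tested and 0 were called in the ctrl TAC comparisons. Of 7 dendritic cell genes 5 were tested. Itgax, the dendritic and macrophage integrin CD11c, was the 1 called in ctrl at TAC 3 d, by 2.59 ± 0.53 (SE, adjusted p = 0.00271), where 14.8% of all genes were higher. It was also the 1 called in cKO at TAC 7 d, by 1.75 ± 0.48 (SE, adjusted p = 0.0192), where 11.4% were higher. The latter Itgax call was lost without cKO sham replicate 1 (1.51) or 2 (1.72). Between genotypes at TAC 3 d 1 of the 5 was called, lower in cKO (adjusted p = 0.0347 in edgeR), where 9.36% of all genes were lower. At an unadjusted p under 0.05 there were 4 of the 5.

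The cKO TAC 3 d replicate 2 library also stood apart within the myeloid genes: Spp1, osteopontin, was 32 CPM there against 1.12 and 0.619 CPM in the other 2 libraries of the group, and it held 56 of the group's Chil3 counts against 4 and 0.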
